A study of Homo sapiens with 8 samples.

Results

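Transcription factors that direct embryonic development were followed in SUDHL6 cells treated with compounds aimed at EZH2. They are the genes of the HOX, PAX, SOX, GATA, TBX, sine oculis homeobox, LHX, DLX, IRX, MEIS, EN, MSX, NKX and FOX families, chosen by symbol alone, with PAX5 left out because it is the identity factor of B cells. The rule found 121 genes among the 19709 genes of the deposited tables: 33 HOX genes, 29 FOX genes, 13 SOX genes and 46 genes of the other families. Chromatin marks were not measured here, so which of these genes carried polycomb marks in SUDHL6 cells is not known from these data.

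EZH2 is the methyltransferase of polycomb repressive complex 2, which places trimethylation on lysine 27 of histone H3 and keeps genes silent that specify other lineages. HOX genes give cells their position along the body axis, and the other families specify tissues such as endoderm, heart, kidney, neural crest and forebrain. In mature B cells most of them are silent, while some FOX genes such as FOXO1 and FOXP1 act in the lineage.

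SUDHL6 is an established human lymphoma line of germinal-centre type, grown from a diffuse large B-cell lymphoma. Its cells were treated for 18 h with 2.5 µM of MS8815, a PROTAC that degrades EZH2, with the EZH2 inhibitor EPZ-6438, with MS8815N, the control analog of MS8815 that is not a degrader, or with DMSO as vehicle. RNA-seq was done on 2 libraries of each of the 4 groups. The labels speak of duplicates and name no separate cultures. They name 2 library preparation kits, Illumina TruSeq and NEBNext Ultra II, without saying which library was made with which, and the part of the kit in the results was not tested. The p-values therefore cover the spread between these libraries alone, possibly a technical one, and all results come from 1 cell line.

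The marker lists given here were chosen with earlier results of these data known. The MS8815 libraries stood apart in depth and in genes outside the members. Their estimated depth was 12.9 and 14.6 M reads, against 26.1 to 34.0 M reads in the other 6 libraries. Of 17 tested adherent-cell and extracellular-matrix markers, 17 were higher with MS8815, with summed levels of 36258 and 37268 normalised counts in MS8815 cells and 3697 and 3429 in DMSO cells. Epithelial markers summed to 9328 and 9148 in MS8815 cells and to 590 and 543 in DMSO cells, with 8 of 10 called higher. Mesenchymal and fibroblast markers summed to 4130 and 4034 in MS8815 cells and to 347 and 252 in DMSO cells, with 5 of 7 called higher. Of 20 B-cell markers 18 were called lower, and the 20 summed to 71512 and 72080 in MS8815 cells and to 141223 and 142636 in DMSO cells. Of all 18744 genes tested with MS8815, 24.5% were called higher and 22.4% lower. Falls were more frequent at high levels. Of the genes listed for all 3 compounds with a mean from 1000 normalised counts upwards over the EPZ-6438 and MS8815N libraries, 62.8% were called lower. The markers were not matched for level. No marker of these lists was at 0 in both DMSO libraries or in both MS8815 libraries, while COL3A1, THY1 and LUM were not in the MS8815 table. The part of these markers in the results on transcription factors was not tested, and in bulk RNA fewer cells of a type and less RNA per cell cannot be told apart. EZH2 mRNA itself had 2479 and 2345 normalised counts in MS8815 cells and 2820 and 2993 in DMSO cells, a log2 fold change of -0.27 ± 0.06 (SE, limma adjusted p = 0.0123) that was 0.72 when scaled to the 20 B-cell markers. RNA does not measure the protein that the degrader removes.

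In vehicle-treated lymphoma cells most of these factors were near silence. The mean of the 2 DMSO libraries was under 10 normalised counts for 81 of the 119 members in the MS8815 table, among them 31 of 33 HOX genes. It was 10 to 100 for 21 members and at least 100 for 17, and 12 of those 17 were FOX genes. Per kilobase of merged exons, the highest mean DMSO levels were 795 for FOXM1, the mitotic-entry factor, 408 for SOX12, 358 for FOXO1, which acts in germinal-centre B cells, and 220 for FOXP4. SOX5, a SoxD factor known from cartilage and neurons, stood at 107 and MEIS2, a HOX partner, at 111 per kilobase. HOXC4 stood at 73.1 per kilobase, the highest of the HOX genes with an exon length. The factors GATA6 and SOX9, low in DMSO cells, stood at 3.31 and 9.53 per kilobase.

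MS8815 was followed by higher mRNA of most of these factors. Of the 78 members listed for all 3 compounds, 47 were higher and 10 lower with MS8815 than with DMSO at an adjusted p under 0.05 (limma, Benjamini-Hochberg adjustment across the whole table), where 22.5% and 24.0% of the 17467 genes in all 3 tables were called. The median log2 fold change of these 78 members was 2.33, against -0.06 over those genes. Over all 119 members of the MS8815 table, 75 were higher, 10 lower and 34 not called, where 24.5% and 22.4% of 18744 genes were called. A further 32 members were listed only in the MS8815 table, where they could pass the deposited table's filter through the MS8815 libraries. Of them 22 were called higher and 0 lower, where 54.2% and 0% of the 875 such genes were called.

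The risen members moved far. Their 75 log2 fold changes had a median of 3.49 and ran from 0.27 to 4.74, and 55 of them were at least 3. Without the 4 of them listed at 0 in both DMSO libraries the median was 3.51, and 51 were at least 3. Among all 18744 genes 2204 reached 3, so changes of this size were shared with many genes outside these families, the adherent-cell markers among them with a median of 4.09. The 10 falls had a median of -0.48 and ran from -1.52 to -0.27.

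**Figure D1:**
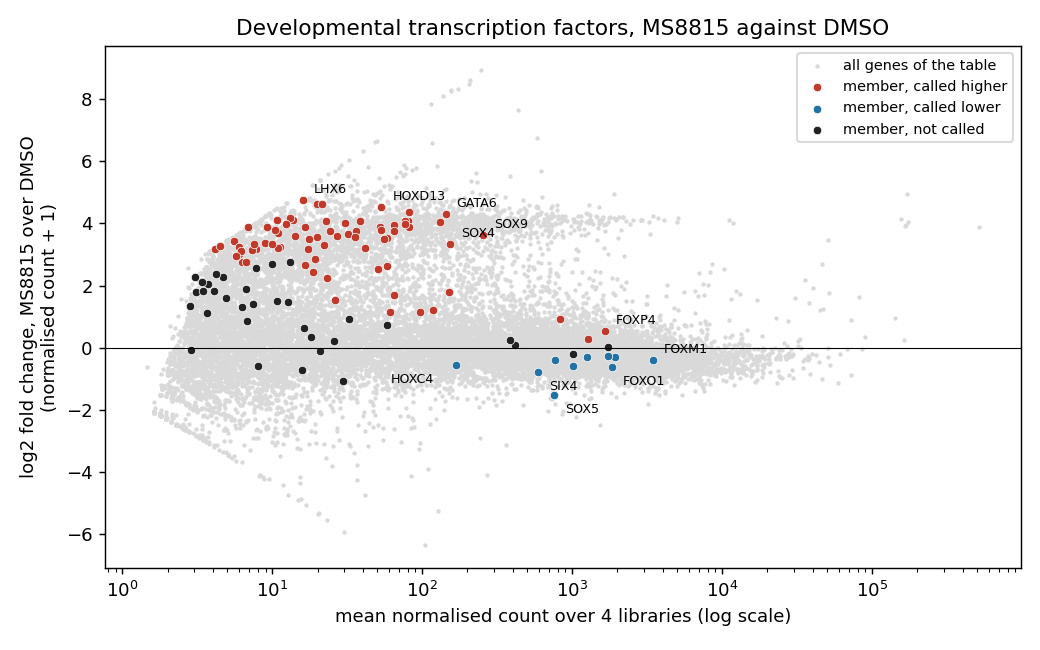
Each point is 1 gene of the MS8815 table, with the mean normalised count over the 4 libraries on a log axis and the log2 fold change of MS8815 over DMSO on the vertical axis. Red, blue and black points are the 119 members called higher (75), called lower (10) and not called (34), and grey points are all genes. The risen members form a band mostly above 3, and the 10 falls lie at the higher levels.

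Members were also set against genes of like level. For the 78 members in all 3 tables the level was the mean over the EPZ-6438 and MS8815N libraries, which the comparison of MS8815 with DMSO did not use. Under 10 normalised counts 27 of 37 members were higher and 0 lower with MS8815, against 28.2% and 2.18% of all genes at that level. Between 10 and 50 it was 14 of 20 higher and 0 lower, against 36.2% and 2.14% of all genes. Between 50 and 200 it was 3 of 4 higher and 0 lower, against 32.3% and 7.02%. Between 200 and 1000 it was 1 of 8 higher and 4 lower, against 17.9% and 22.8%, and from 1000 upwards 2 of 9 higher and 6 lower, against 9.22% and 62.8%. All genes thus also fell more often at high levels, and the share of falls among the members from 1000 upwards was near that of all genes at that level. The 62 members in all 3 tables with a mean under 200 over the 8 libraries summed to 5247 and 5020 normalised counts in MS8815 cells, 1142 and 1120 in EPZ-6438 cells, 1216 and 1102 in MS8815N cells, and 995 and 964 in DMSO cells.

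Scaling and the DMSO libraries set limits on these counts. Scaling each library to the 20 B-cell markers moved the median of all genes by 0.96 on the log2 scale and gave 97 members higher and 1 lower, where 70.4% and 0.896% of all genes were called. Quantile normalisation gave 52 higher and 6 lower, where 19.8% and 28.9% of all genes were called. Without DMSO replicate 1 the count was 20 higher and 3 lower, where 10.5% and 9.02% of all genes were called, and without DMSO replicate 2 it was 23 higher and 2 lower, where 10.4% and 8.7% were called, in fits that leave 1 DMSO library assumed to vary like the MS8815 pair.

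All 4 measured GATA factors, which belong to different lineages, rose in the fit used here, where 24.5% of all genes were called higher. Under quantile normalisation 3 of them rose, where 19.8% of all genes were called higher. GATA6, which specifies endoderm and heart, lies at chr18:22169443-22202528 on the plus strand (GRCh38, GENCODE 29). It had 294 and 251 normalised counts in MS8815 cells, 15.6 and 31.7 in EPZ-6438 cells, 15.7 and 13.1 in MS8815N cells, and 14.6 and 11.5 in DMSO cells. Both MS8815 libraries were far above all others, with a log2 fold change over DMSO of 4.29 ± 0.27 (SE, limma adjusted p = 0.000123). GATA2, a factor of blood stem cells and progenitors, had 133 and 157 normalised counts in MS8815 cells and 9.60 and 5.85 in DMSO cells, a log2 fold change of 4.09. GATA4, the heart factor, had 49.3 and 98.1 in MS8815 cells and 2.11 and 4.69 in DMSO cells, a log2 fold change of 4.07. GATA3, which acts in T cells and mammary epithelium, had more RNA at baseline, with 95.5 and 103 normalised counts in MS8815 cells and 37.3 and 24.1 in DMSO cells. Its log2 fold change was 1.70 (limma adjusted p = 0.00523), and it was not called without either of the DMSO replicates (2.0 without replicate 1 and 1.39 without replicate 2) nor under quantile normalisation (0.40).

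Promoter sequence is shown for a low factor of the endoderm that rose, a HOX gene that rose and the member that fell furthest, to set them side by side. Each window runs from 250 bases before to 50 bases after the RefSeq start (GRCh38.p14), 5′ to 3′ on the gene's strand, with every CG in capitals, the dinucleotide that marks CpG islands. The windows are chr18:22169339-22169638 on the plus strand for GATA6, chr2:176092471-176092770 on the plus strand for HOXD13 and chr12:24562442-24562741 on the minus strand for SOX5.
GATA6: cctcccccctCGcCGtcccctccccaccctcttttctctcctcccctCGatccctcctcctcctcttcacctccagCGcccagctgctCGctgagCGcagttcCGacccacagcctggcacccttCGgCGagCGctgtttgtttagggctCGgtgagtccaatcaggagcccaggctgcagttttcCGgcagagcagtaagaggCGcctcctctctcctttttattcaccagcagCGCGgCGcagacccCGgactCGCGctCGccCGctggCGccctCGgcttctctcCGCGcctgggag
HOXD13: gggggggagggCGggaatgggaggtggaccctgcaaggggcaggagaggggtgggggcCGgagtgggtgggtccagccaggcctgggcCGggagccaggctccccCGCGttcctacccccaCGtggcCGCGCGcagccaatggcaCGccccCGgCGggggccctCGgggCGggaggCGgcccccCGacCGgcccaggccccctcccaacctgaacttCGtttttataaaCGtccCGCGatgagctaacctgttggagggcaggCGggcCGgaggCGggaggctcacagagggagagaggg
SOX5: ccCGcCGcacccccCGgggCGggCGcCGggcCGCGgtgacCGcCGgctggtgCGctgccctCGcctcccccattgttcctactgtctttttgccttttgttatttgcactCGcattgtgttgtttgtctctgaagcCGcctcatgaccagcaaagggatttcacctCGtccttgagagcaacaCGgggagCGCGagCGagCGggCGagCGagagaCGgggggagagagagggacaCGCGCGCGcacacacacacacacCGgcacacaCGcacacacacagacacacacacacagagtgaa
The motif searched was CG, which reads the same on both strands, and it occurred 25 times in GATA6, 24 times in HOXD13 and 29 times in SOX5. Over all 35116 RefSeq promoters of this length the median was 14, with quartiles of 4 and 28, and 96.0% held at least 1. The 2 risen genes and the fallen one thus did not part by this count. Only 77 of the 121 members had a promoter in the table used (63.6%), so no comparison over the members was made.

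Members of each of the 4 HOX clusters were called higher. Of 33 measured, 23 were called higher, 1 lower and 9 not called, with a median log2 fold change of 3.17, or 3.13 without the 2 listed at 0 in both DMSO libraries. Of the 17 in all 3 tables, 11 were higher and 1 lower, and these 17 summed to 1038 and 884 normalised counts in MS8815 cells, 298 and 321 in EPZ-6438 cells, 320 and 310 in MS8815N cells, and 287 and 306 in DMSO cells. By cluster, 5 of 8 HOXA, 2 of 3 HOXB, 2 of 4 HOXC and 2 of 2 HOXD genes of the 3 tables were called higher, where 22.5% of the genes in all 3 tables were. A further 13 HOX genes were listed only in the MS8815 table, where they could pass the filter through the MS8815 libraries, and 10 of them were called higher, against 54.2% of all such genes.

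HOXD13, which patterns the digits and lies at chr2:176092891-176095938, had the largest HOX change. It had 94.2 and 112 normalised counts in MS8815 cells, 5.21 and 6.92 in EPZ-6438 cells, 15.3 and 4.01 in MS8815N cells, and 4.61 and 2.59 in DMSO cells. The MS8815 libraries were above all others, with a log2 fold change of 4.53 ± 0.43 over DMSO (SE, limma adjusted p = 0.000407). HOXA9, a progenitor factor that drives leukaemia when overexpressed, had 142 and 104 in MS8815 cells, 12.8 and 6.49 in EPZ-6438 cells, 16.2 and 21.1 in MS8815N cells, and 5.56 and 8.51 in DMSO cells. The log2 fold change of HOXA9 was 3.96. HOXB9 had 174 and 133 normalised counts in MS8815 cells, 7.16 and 4.61 in EPZ-6438 cells, 15.9 and 8.02 in MS8815N cells, and 7.24 and 12.3 in DMSO cells. It had the highest MS8815 level of all HOX genes that rose, and its log2 fold change was 3.87. HOXA10 had 61.8 and 72.8 in MS8815 cells and 7.08 and 2.10 in DMSO cells, a log2 fold change of 3.76, and the groups did not overlap. HOXC10, the HOXC gene with the smallest p, had 41.8 and 32.6 in MS8815 cells and 3.0 and 1.56 in DMSO cells, a log2 fold change of 3.56 that was not called without DMSO replicate 1 (3.89) or replicate 2 (3.24).

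Genes of the posterior end of the clusters, paralogues 9 to 13, had a higher median level with MS8815 than those of paralogues 1 to 8. Their MS8815 means had a median of 37.2 normalised counts over 13 genes, with 11 called higher and 0 lower, against 15.5 over 20 genes, with 12 higher and 1 lower. Of all genes 24.5% were called higher and 22.4% lower. The DMSO means had medians of 2.47 for paralogues 9 to 13 and 1.41 for 1 to 8, so the posterior genes were also higher at baseline. Both sets held genes listed only in the MS8815 table, where they could pass the filter through the MS8815 libraries. The median log2 fold changes of the 2 sets were 3.67 and 2.77. The ranges of the MS8815 means overlapped, from 7.80 to 154 and from 7.93 to 135. In the HOXA cluster the 3 posterior genes had MS8815 means of 60.6 to 123, and the 6 others 11.5 to 50.3. The other clusters showed no such gap, with means of 21.3 and above for posterior HOXB genes against 9.40 to 40.3 for the others. In the HOXD cluster 2 of 4 posterior genes were called higher, against 3 of 4 others, with median log2 fold changes of 3.07 and 3.04. This is a description of neighbouring genes and was not tested.

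Several HOX genes stood at almost nothing in DMSO cells. HOXB13, HOXB7, HOXB3, HOXC5, HOXC9, FOXI3 and NKX2-4 were listed only in the MS8815 table. There they could pass the filter through the MS8815 libraries, so a low DMSO level beside a higher MS8815 level is partly given by the listing. HOXB13, a prostate and hindgut factor, had 19.8 and 22.7 normalised counts in MS8815 cells and 0.658 and 0 in DMSO cells. HOXB7 had 21.8 and 29.3 in MS8815 cells and 0 and 1.14 in DMSO cells, and HOXB3 had 41.3 and 12.8 in MS8815 cells and 0 and 0.969 in DMSO cells. Here 1 read was worth about 1.65 and 1.42 normalised counts in the MS8815 libraries and 0.660 and 0.649 in the DMSO libraries, so the DMSO values stand for a read or so. HOXB3 was not called without DMSO replicate 1 (3.62) or replicate 2 (4.59), and HOXB13 was not called without DMSO replicate 2 (3.75), so the log2 fold changes stayed large where the calls were lost. HOXC5, HOXC9, FOXI3 and NKX2-4 were listed at 0 in both DMSO libraries and at 5.68 to 16.5 in the MS8815 libraries. For these no fold change is given.

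HOXC4, the HOX gene with the most RNA at baseline, went the other way. It had 125 and 145 normalised counts in MS8815 cells, 206 and 217 in EPZ-6438 cells, 215 and 215 in MS8815N cells, and 198 and 201 in DMSO cells. Its log2 fold change was -0.56 ± 0.17 (SE, limma adjusted p = 0.0384), but it was 0.42 when scaled to the B-cell markers and -1.35, still called lower, under quantile normalisation. The call was lost without DMSO replicate 1 (-0.57), DMSO replicate 2 (-0.55) or MS8815 replicate 1 (-0.46). HOX genes overlap each other: HOXC4 shares its span with HOXC5 and HOXC6, HOXB7 with HOXB8 and HOXB9, and HOXA10 with HOXA9, on the same strand. Of the 120 members with a GENCODE position, 37 overlapped a gene on the same strand and 68 a gene on the other strand, and strand use in counting is not given in the sources used here, so reads of such neighbours may be mixed.

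The TALE-class partners of HOX proteins split. MEIS1, which binds DNA beside HOXA9 in progenitors, had 176 and 117 normalised counts in MS8815 cells, 40.4 and 9.16 in EPZ-6438 cells, 6.36 and 5.63 in MS8815N cells, and 7.51 and 8.78 in DMSO cells. Its log2 fold change with MS8815 was 3.98 ± 0.36 (SE, limma adjusted p = 0.000871), and the 2 EPZ-6438 libraries lay far apart. MEIS3 had 31.4 and 47.2 in MS8815 cells and 14.2 and 11.4 in DMSO cells, a log2 fold change of 1.52 that was 0.19 and not called under quantile normalisation. MEIS2 had 947 and 676 normalised counts in MS8815 cells and 1222 and 1178 in DMSO cells, and its log2 fold change of -0.58 turned to 0.41 when scaled to the B-cell markers and was not called under quantile normalisation (-0.50) or without either DMSO replicate (-0.56 and -0.61). In the list of 9 HOX cofactors, which holds the 3 MEIS genes, 5 were higher and 1 lower, where 24.5% and 22.4% of all genes were called. Under quantile normalisation 2 were higher and 0 lower, where 19.8% and 28.9% of all genes were called. The share of rises was then near that of all genes.

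SOX factors rose in 8 of 13 cases and fell in 2, where 24.5% and 22.4% of all genes were called. Of the 8 SOX genes in all 3 tables, 4 rose and 2 fell, where 22.5% and 24.0% of such genes were called. A further 3 were listed only in the MS8815 table, where they could pass the filter through the MS8815 libraries. Of these 2 rose, where 54.2% of such genes were called higher. Under quantile normalisation 4 of the 13 rose and 1 fell, where 19.8% and 28.9% of all genes were called, so the count of rises was then nearer the background. SOX9, the factor of cartilage and gonad development, lies at chr17:72121020-72126420 and had the smallest adjusted p among all members. It had 496 and 444 normalised counts in MS8815 cells, 54 and 37.7 in EPZ-6438 cells, 45.4 and 35.4 in MS8815N cells, and 35.5 and 39.5 in DMSO cells. Its log2 fold change was 3.61 ± 0.18 (SE, limma adjusted p = 6.56e-05), and the MS8815 libraries did not overlap any other. Per kilobase it reached 120 in MS8815 cells, the highest of the members under 100 normalised counts in DMSO cells. SOX4, a factor of lymphoid and other progenitors, had 251 and 308 in MS8815 cells and 23.7 and 30.4 in DMSO cells, a log2 fold change of 3.33. SOX13 had 314 and 183 in MS8815 cells and 11.9 and 15.5 in DMSO cells, a log2 fold change of 4.05. SOX2, a pluripotency factor, and SOX10, a neural crest factor, stayed low, at 16.5 and 17.0 and at 15.6 and 37.9 normalised counts in MS8815 cells, against 0 and 1.94 and against 3.33 and 0 in DMSO cells.

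SOX5 had the deepest fall of all members. It had 404 and 373 normalised counts in MS8815 cells, 1014 and 1001 in EPZ-6438 cells, 990 and 866 in MS8815N cells, and 1172 and 1065 in DMSO cells. The MS8815 libraries were below all 6 others, with a log2 fold change over DMSO of -1.52 ± 0.10 (SE, limma adjusted p = 0.000157). It was the 1 member still called lower when scaled to the B-cell markers, at -0.53. SIX4 had 453 and 422 normalised counts in MS8815 cells and 731 and 764 in DMSO cells, and its log2 fold change of -0.77 became 0.22 under that scaling and was not called without DMSO replicate 2 (-0.74).

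The FOX family held both directions, and its 12 members with at least 100 normalised counts in DMSO cells had log2 fold changes between -0.63 and 0.93. FOXO1 had 1432 and 1460 normalised counts in MS8815 cells, 2163 and 2193 in EPZ-6438 cells, 2042 and 2065 in MS8815N cells, and 2327 and 2141 in DMSO cells. For FOXO1 the log2 fold change was -0.63 ± 0.07 (SE, limma adjusted p = 0.000867), and 0.37 when scaled to the B-cell markers. FOXM1 had 2805 and 3118 in MS8815 cells, 3582 and 3637 in EPZ-6438 cells, 3786 and 3652 in MS8815N cells, and 3930 and 3862 in DMSO cells. For FOXM1 the log2 fold change was -0.40, and 0.59 when scaled to the B-cell markers, with the call lost under quantile normalisation (-0.10). FOXN2 (-0.39), FOXK1 (-0.30) and FOXJ3 (-0.29) were also called lower, and turned to 0.60, 0.69 and 0.70 when scaled to the B-cell markers. Under quantile normalisation they were not called, at -0.37, -0.10 and -0.16, nor was the SOX gene SOX12 at -0.09. Without either DMSO replicate FOXM1 (-0.39 and -0.41), FOXK1 (-0.28 and -0.31), FOXJ3 (-0.25 and -0.32) and SOX12 (-0.27 in the full fit, and 0.72 when scaled to the B-cell markers) were not called, and FOXJ3 also not without MS8815 replicate 1 (-0.28).

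Some expressed FOX genes rose. FOXP4 had 2066 and 1861 normalised counts in MS8815 cells, 1476 and 1510 in EPZ-6438 cells, 1443 and 1468 in MS8815N cells, and 1375 and 1339 in DMSO cells, a log2 fold change of 0.53 (limma adjusted p = 0.00246) that was not called without either DMSO replicate (0.55 and 0.51). FOXN3, a checkpoint repressor, had 983 and 1195 in MS8815 cells and 607 and 530 in DMSO cells, a log2 fold change of 0.93, and FOXO3 changed by 0.27. FOXP1, a B-cell factor, had 990 and 885 in MS8815 cells and 1070 and 1092 in DMSO cells and was not called, with a log2 fold change of -0.21 that was 0.78 when scaled to the B-cell markers. FOXK2 had 1789 and 1708 in MS8815 cells and 1981 and 1488 in DMSO cells, and the groups overlapped.

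Lineage factors of the FOX family rose as well. FOXA2, an endoderm pioneer factor, had 147 and 68.0 normalised counts in MS8815 cells and 5.30 and 11 in DMSO cells, a log2 fold change of 3.54. FOXQ1 had 87.6 and 116 in MS8815 cells and 9.21 and 7.12 in DMSO cells, a log2 fold change of 3.49. Of the 28 FOX genes tested, 12 were called higher and 5 lower, where 24.5% and 22.4% of all genes were called, so falls were about as frequent as in the whole table. Of the 21 FOX genes in all 3 tables, 7 were higher (33.3%) and 5 lower (23.8%), where 22.5% and 24.0% of such genes were called. A further 5 were listed only in the MS8815 table, where they could pass the filter through the MS8815 libraries. Of these 3 were called higher, where 54.2% of such genes were.

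**Figure D2:**
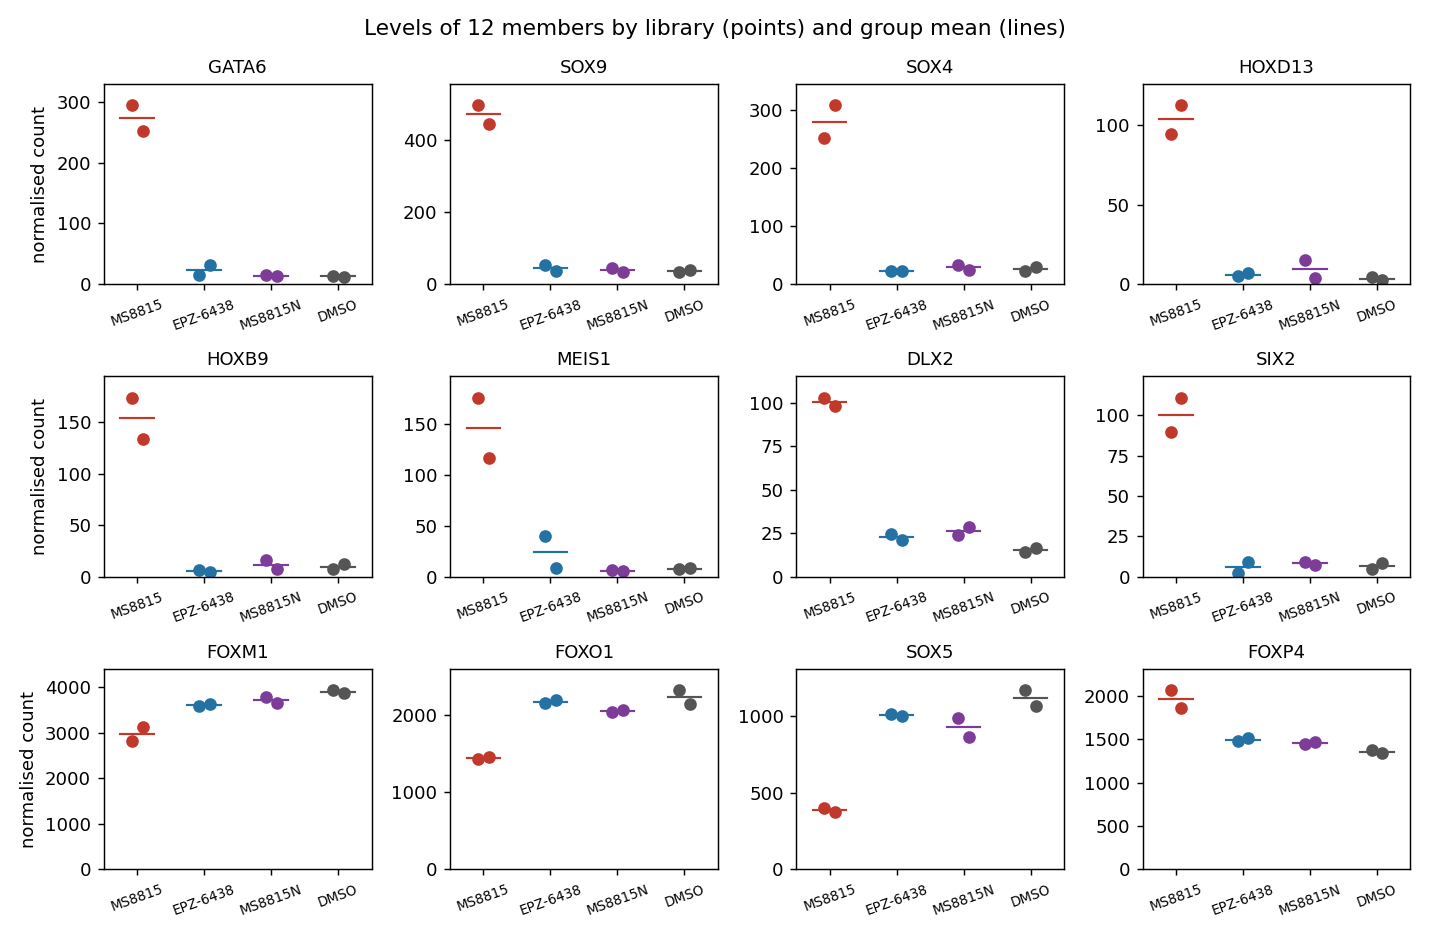
Each panel is 1 member, with points for the 2 libraries of each group, a line for their mean and the normalised count on an axis from 0. GATA6, SOX9, SOX4, HOXD13, HOXB9, MEIS1, DLX2 and SIX2 are highest in the MS8815 libraries, FOXM1, FOXO1 and SOX5 are lowest there, and FOXP4 is highest there.

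Of the LHX, DLX and EN genes tested, 3 of 4, 2 of 4 and 2 of 2 were called higher, where 24.5% of all genes were. Of these rises, 2 in LHX and 1 in EN were of genes listed only in the MS8815 table, where 54.2% of such genes were called higher. LHX6, which specifies cortical interneurons, had 27.2 and 36.1 normalised counts in MS8815 cells and 0 and 0.455 in DMSO cells, a log2 fold change of 4.74. It was listed only in the MS8815 table, where it could pass the filter through the MS8815 libraries. DLX1, a factor of the ventral forebrain, had 45.3 and 32.7 in MS8815 cells, 4.39 and 1.81 in EPZ-6438 cells, 8.40 and 3.14 in MS8815N cells, and 0 and 1.52 in DMSO cells, a log2 fold change of 4.64. Both rest on DMSO levels of a read or so, and without DMSO replicate 1 LHX6 (4.47), DLX1 (3.97) and HOXB7 (3.62) were not called although their log2 fold changes stayed large. DLX2 had 103 and 98.4 in MS8815 cells, 24.5 and 21.0 in EPZ-6438 cells, 24.3 and 28.5 in MS8815N cells, and 14.3 and 16.6 in DMSO cells, a log2 fold change of 2.63 ± 0.30 (SE, limma adjusted p = 0.000970). EN2, which patterns the midbrain and cerebellum, had 175 and 131 normalised counts in MS8815 cells and 5.92 and 11 in DMSO cells, a log2 fold change of 4.06.

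All 5 NKX genes and all 4 IRX genes were called higher, where 24.5% of all genes were. Of those in all 3 tables, 4 of 4 NKX and 3 of 3 IRX genes were called higher, where 22.5% of such genes were. NKX2-4 and IRX1 were listed only in the MS8815 table, where they could pass the filter through the MS8815 libraries. Under quantile normalisation 4 NKX and 3 IRX genes were called higher, where 19.8% of all genes were. IRX3 had 122 and 121 normalised counts in MS8815 cells, 5.21 and 12.3 in EPZ-6438 cells, 12.8 and 10.0 in MS8815N cells, and 9.21 and 7.12 in DMSO cells, a log2 fold change of 3.75. SIX2, which keeps nephron progenitors undifferentiated, had 89.2 and 111 in MS8815 cells and 4.61 and 8.42 in DMSO cells, a log2 fold change of 3.79. In both genes the MS8815 libraries were above the 6 others. TBX18, a factor of the sinus node and ureter, had 22.8 and 25.1 normalised counts in MS8815 cells and 0.772 and 0.380 in DMSO cells, a log2 fold change of 3.99 that was not called without DMSO replicate 1 (4.18) or replicate 2 (3.81).

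PAX8, a thyroid and kidney factor with RNA also in DMSO cells, had 279 and 193 normalised counts in MS8815 cells, 69.2 and 71.0 in EPZ-6438 cells, 102 and 100 in MS8815N cells, and 79.9 and 54.4 in DMSO cells. Its log2 fold change of 1.80 ± 0.29 (SE, limma adjusted p = 0.00443) was not called under quantile normalisation (0.86) or without either DMSO replicate (2.07 and 1.53). MSX1, a craniofacial factor, had 24.8 and 44.0 in MS8815 cells and 2.63 and 5.18 in DMSO cells, a log2 fold change of 2.85, with the call lost under quantile normalisation (1.65) and without either DMSO replicate (2.46 and 3.23).

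The 25 members outside HOX that were not called held different cases. PAX6, the eye factor, had 11.3 and 85.3 normalised counts in MS8815 cells and 16.0 and 16.1 in DMSO cells, so the 2 MS8815 libraries lay on either side of the DMSO libraries. TBX21, the T-bet factor of T helper cells, was at 1.26 and 4.32 in MS8815 cells and at 1.5 and 4.41 in DMSO cells, and LHX2 at 0 and 10.6 in MS8815 cells and at 0 and 0.783 in DMSO cells. FOXJ2 and FOXO4 were expressed in both groups, with log2 fold changes of 0.08 and 0.26 that turned to -0.16 and -0.02 under quantile normalisation. The remaining members without a call outside HOX and apart from FOXP1 and FOXK2 had MS8815 means of at most 72.2 normalised counts, and FOXH1 and LHX3 were not in the MS8815 table.

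EPZ-6438, which blocks EZH2 activity without removing the protein, left no called change in these factors at this time and dose. Within its own data 0 of 84 members were called in either direction by limma, where 0.0164% of 18320 genes were called higher and 0.0164% lower, and 6 members had an unadjusted p under 0.05, where 16.8% of all genes did. Fits on log2(normalised count + 1) and on the joined 8 libraries also called 0. The median log2 fold change was 0.06 with a range from -1.47 to 2.45, against 0.01 over all genes. MEIS3 had the smallest p, with 31.9 and 30.2 normalised counts in EPZ-6438 cells and 14.2 and 11.4 in DMSO cells, a log2 fold change of 1.25 (95% interval 0.52 to 1.97, limma adjusted p = 0.129). The next were FOXM1 (-0.11), FOXJ3 (-0.17), FOXP4 (0.14) and FOXN3 (0.23). For GATA6 the interval of the log2 fold change ran from -0.26 to 1.76 and for SOX9 from -0.36 to 0.89, so changes of the size seen with MS8815 lay outside both. Over the 18 HOX genes of that table the median was 0.04.

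MS8815N, the analog that does not degrade EZH2, also gave 0 called members of 85 by limma, where 0.288% of 18398 genes were called higher and 0.245% lower. An unadjusted p under 0.05 was reached by 14 members, where 15.7% of all genes reached it, a share close to that of the members. The fits on log2(normalised count + 1) and on the joined libraries called 0. The median log2 fold change was 0.22, with a range from -2.80 to 2.35, against 0.00 over all genes. MEIS2 had the smallest p, with 1026 and 976 normalised counts in MS8815N cells and 1222 and 1178 in DMSO cells, a log2 fold change of -0.26 (95% interval -0.39 to -0.13, limma adjusted p = 0.0960). FOXJ3 (-0.22), FOXK1 (-0.16), PAX6 (-2.80) and SOX5 (-0.27) followed. PAX6 had 6.5 and 0.435 normalised counts in MS8815N cells and 16.0 and 16.1 in DMSO cells, so its value rests on a few reads. The interval for GATA6 ran from -0.69 to 0.97 and that for SOX9 from -0.48 to 0.68. HOXA9 had 16.2 and 21.1 normalised counts in MS8815N cells and 5.56 and 8.51 in DMSO cells, a log2 fold change of 1.33 (95% interval 0.30 to 2.37, limma adjusted p = 0.217), and the median of the 19 HOX genes was -0.12.

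The 3 compounds were compared with each other at the same dose and time, in 3 pairs, with p-values adjusted over all genes and the pairs together. MS8815 gave 46 members higher and 8 lower than EPZ-6438 among 78, where 23.0% and 24.7% of 17467 genes were called, with a median log2 difference of 1.92. Against MS8815N, which differs from it in not being a PROTAC, MS8815 gave 48 higher and 6 lower, where 23.0% and 24.7% were called, with a median of 1.87. These comparisons share the MS8815 libraries, and what marks those libraries, given above, touches both.

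The size of single differences in these pairs varied. GATA6 was higher with MS8815 than with EPZ-6438 by 3.55 on the log2 scale (95% interval 2.70 to 4.39, limma adjusted p = 0.000118) and than with MS8815N by 4.15 (3.31 to 5.0, limma adjusted p = 4.71e-05). HOXB9 was higher by 4.5 than with EPZ-6438 (3.46 to 5.54) and by 3.63 than with MS8815N (2.59 to 4.68). SOX5 was lower by these fits, at -1.37 against EPZ-6438 (-1.58 to -1.17) and -1.25 against MS8815N (-1.46 to -1.05). DLX1 was higher by 3.34 than with EPZ-6438 and by 2.66 than with MS8815N, and HOXA9 by 3.60 and 2.66, below their log2 fold changes over DMSO of 4.64 and 3.96. MEIS3 was not called in either pair, with differences of 0.30 (-0.48 to 1.09) from EPZ-6438 and 0.73 (-0.05 to 1.52) from MS8815N.

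MS8815N and EPZ-6438 could not be told apart over these factors, which does not show that they act alike. The limma fit called 0 of 78 members, where 1.49% and 1.01% of all genes were called, and 1 member had an unadjusted p under 0.05, where 6.1% of all genes did. The median log2 difference of MS8815N over EPZ-6438 was 0.01, with a range from -2.53 to 1.33. That member was MEIS1, with 6.36 and 5.63 normalised counts in MS8815N cells and 40.4 and 9.16 in EPZ-6438 cells, a difference of -1.55 (95% interval -2.95 to -0.15, limma adjusted p = 0.0912). Without EPZ-6438 replicate 2 it was -2.57 and called, so it turns on which of the 2 diverging EPZ-6438 libraries is kept. HOXA9 differed by 0.94 (-0.03 to 1.91), HOXB9 by 0.87 (-0.18 to 1.91), PAX8 by 0.52 (-0.03 to 1.08) and GATA6 by -0.60 (-1.45 to 0.24). SOX9 differed by -0.17 (-0.72 to 0.38) and SOX5 by -0.12 (-0.33 to 0.08).

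**Figure D3:**
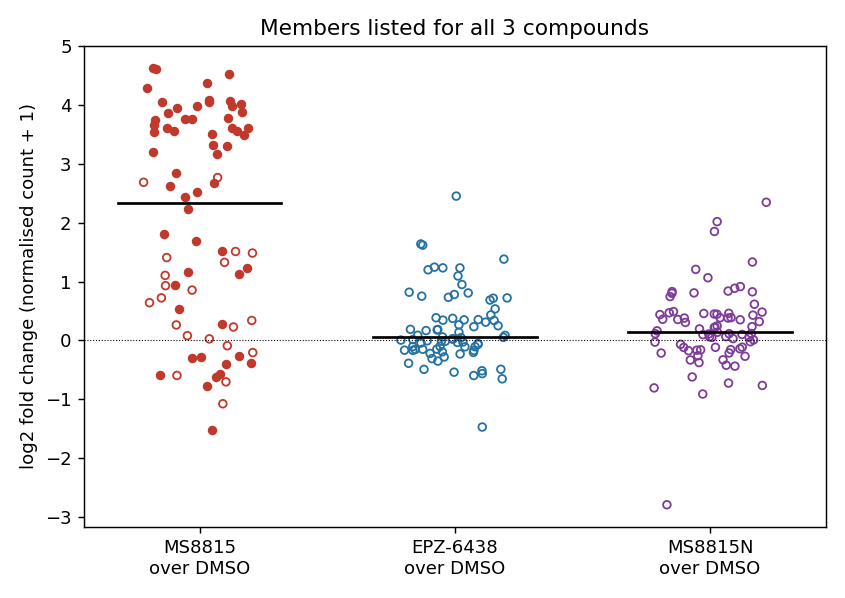
Each point is 1 of the 78 members listed for all 3 compounds, with the log2 fold change over DMSO on the vertical axis, filled where called, and a line at the median of each compound. The MS8815 points have a median of 2.33 and the other compounds medians of 0.05 and 0.15, and all 3 comparisons use the same 2 DMSO libraries.

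With MS8815, 24.5% of all genes were called higher and 22.4% lower. Of the lists of the polycomb machinery, that of polycomb repressive complex 2 held more falls than this. When scaled to the B-cell markers none of the lists named here held a fall. Of 12 tested genes of polycomb repressive complex 2, 2 were called higher (16.7%) and 7 lower (58.3%). Under quantile normalisation 2 were higher and 5 lower, where 19.8% and 28.9% of all genes were called. The list was not matched for level. In the fit used here, 62.8% of the genes in all 3 tables from 1000 normalised counts upwards were called lower. The substoichiometric subunit gene JARID2 had 557 and 585 normalised counts in MS8815 cells and 217 and 243 in DMSO cells, a log2 fold change of 1.31, and PHF1 changed by 1.41. The histone-binding subunit gene RBBP4 changed by -0.73, and by 0.26 when scaled to the B-cell markers. Of 20 genes of polycomb repressive complex 1, 6 were higher (30%) and 5 lower (25%), close to the shares of all genes. PCGF2, whose protein defines a canonical form of that complex, was among those that rose, with 341 and 290 normalised counts in MS8815 cells and 6.70 and 16.8 in DMSO cells. BMI1, its paralogue, changed by 0.90. Of 10 genes for H3K27 demethylases and trithorax-type activators, 3 were higher (30%) and 2 lower (20%), also close to those shares, and the demethylase gene KDM6A had 327 and 335 in MS8815 cells and 18.0 and 10.4 in DMSO cells, a log2 fold change of 4.49.

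Other developmental regulators that polycomb often binds in other cell types moved like the transcription factors chosen by symbol. Of 66 listed, 37 were in the MS8815 table, and 24 of these were called higher and 2 lower, with a median log2 fold change of 2.78, where 24.5% and 22.4% of all genes were called. Some of the 37 were listed only in the MS8815 table, where they could pass the filter through the MS8815 libraries. BMP4, a ligand that patterns the embryo, had 1028 and 1009 normalised counts in MS8815 cells and 60.4 and 70.0 in DMSO cells. BARX1, a stomach mesenchyme factor, had 236 and 195 in MS8815 cells and 12.3 and 16.0 in DMSO cells. The cell-cycle inhibitor gene CDKN2A had 1677 and 1610 in MS8815 cells and 3074 and 3148 in DMSO cells, and the hindlimb factor PITX1 had 3127 and 3108 in MS8815 cells and 4718 and 4861 in DMSO cells, and both were called lower, but changed by 0.07 and 0.37 when scaled to the B-cell markers. With EPZ-6438 and with MS8815N 0 of the 30 tested regulators were called by limma, and 2 had an unadjusted p under 0.05 with each compound.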

How the data were processed

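RNA-seq of SUDHL6 cells was deposited as 3 tables, 1 per compound, each with the 2 libraries of that compound and the same 2 DMSO libraries. The authors deposited log2-type values, which the tables' names call the variance-stabilising transform (vst) of DESeq2. STAR 2.4.2, Salmon and GRCh38 are named in the submitters' processing notes. The gene model, the filter on low genes and the versions of Salmon and DESeq2 are not given in the sources used here. There were 18744 genes in the MS8815 table, 18320 in that of EPZ-6438 and 18398 in that of MS8815N.

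The transform was inverted to normalised counts with its closed form. Between tables the DMSO libraries then differed by a constant for each gene and each library (to within 7.1e-11 in log2), so levels were put on the scale of the MS8815 table. FOXH1 and LHX3, not in that table, were kept on the scale of the MS8815N table. Low values lay on whole multiples of 1 read in 45.5% to 67.1% of cases (tolerance 0.02), which gave the estimated depths. They were too few to recover counts, so no count test was run.

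Each compound was compared with DMSO by limma 3.58.1 (R 4.3.3, trended prior variance, two-sided) on the deposited values of its own table, with 2 residual degrees of freedom, Benjamini-Hochberg adjustment across that whole table and a call where the adjusted p was under 0.05. Fold changes in log2, their SEs and 95% intervals came from limma on log2(normalised count + 1), which understates changes of low genes. Pairs of compounds were compared on the same log2 scale with limma over all 8 libraries, with 4 residual degrees of freedom. The fits were also run on simulated data, in which only genes with a DMSO mean of about 50 normalised counts or more were changed. Recovery of changes at the lower levels of most members was thus not tried. Alternatives were other pseudocounts (0.1 and 5), quantile normalisation, scaling to 20 B-cell markers, the upper 50% of genes by level, no trend, a replicate block and leaving out each library.

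Members and lists were chosen with earlier results of these data known. Members named singly are the 10 largest rises and 6 largest falls whose groups do not overlap (the 5 smallest p where fewer than 5 were called), the smallest p of each family, the 8 highest in DMSO cells and a fixed list. Some of these are not reported here. FOXA2, FOXJ2, FOXN2, FOXN3, FOXO3, FOXO4, FOXQ1, GATA4, MEIS3 in MS8815 cells, SOX2, SOX10 and SOX13 were named after their values were seen, as were the genes listed at 0. Genes of the lists are the 4 with the smallest p.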

Additional observations from a re-analysis of the deposited data

How the results depend on the processing

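With MS8815 against DMSO the count of called members was 85, and it lay between 58 and 98 under the other pseudocounts, scalings and fits without trend and with the replicate block (85). In the joined fit it was 59 of the 78 members in all 3 tables, where the separate fit called 47 higher and 10 lower. It was 13 in the upper 50% of genes by level, where 17 members were left, and 23 to 84 when 1 library was left out. Against EPZ-6438 the count of 54 became 10 in the upper 50% of genes and 45 to 54 without 1 library, and against MS8815N the count of 54 became 9 in the upper 50% and 46 to 53 without 1 library. For MS8815N against EPZ-6438 it was 0, and 0 to 1 without 1 library. Replicate numbers did not pair the libraries, with correlations of their deviations of 0.02, -0.04 and 0.03, and the replicate block gave 54 and 53 calls for MS8815 against EPZ-6438 and MS8815N. Of 462 values for 38 named members under these settings, 399 kept direction and call, 42 lost the call, 4 gained one and 17 turned. Scaled to the B-cell markers, against DMSO, SIX4 turned to 0.22, FOXO1 to 0.37, MEIS2 to 0.41, HOXC4 to 0.42, FOXM1 to 0.59, FOXK1 to 0.69, SOX12 to 0.72, FOXJ3 to 0.70, TBX21 to 0.60 and FOXP1 to 0.78. Under that scaling HOXC4, FOXO1, SIX4, MEIS2 and SOX12 were 0.32, 0.39, 0.41, 0.42 and 0.65 against EPZ-6438, and HOXC4, SIX4, FOXO1, SOX12 and FOXM1 were 0.27, 0.34, 0.44, 0.57 and 0.62 against MS8815N. When 1 library was left out, FOXK2 ranged from -0.18 to 0.23, PAX6 from -0.47 to 2.34, TBX21 from -0.71 to 0.53 and LHX2 from -0.42 to 3.11, and PAX6 was -0.40 under quantile normalisation. The scaled values shift by construction with the fall of the markers, and the other causes were not tested. Depth limits members of a few reads, above all in the shallower MS8815 libraries.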

Other observations

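Replicates of the members lay further apart in the median than those of all genes. Over the 78 members in all 3 tables, the median absolute log2 difference between the 2 libraries of a group, on normalised count plus 1, was 0.32 in MS8815 cells, 0.37 in EPZ-6438 cells, 0.26 in MS8815N cells and 0.36 in DMSO cells. Over all genes of the 3 tables it was 0.21, 0.14, 0.12 and 0.13 in these groups. Members and all genes were not matched for level here. A mean under 10 normalised counts over the EPZ-6438 and MS8815N libraries was found for 37 of the 78 members and 3526 of the 17467 genes. The part of level in the difference was not tested.

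FOXO6, a forkhead factor, was uneven within groups, with 3.31 and 34.1 normalised counts in MS8815 cells and 9.12 and 0 in EPZ-6438 cells, against 2.63 and 0 in DMSO cells. The deposited values do not show why a gene is at 0 in 1 library of a pair.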
